A study of Mus musculus with 6 samples.

Results

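The 10 genes described here encode liver enzymes that interconvert steroids or closely related lipids. They are 3 members of the 3β-hydroxysteroid dehydrogenase family (Hsd3b2, Hsd3b3, Hsd3b5), the 11-ketosteroid reductase Hsd11b1, 4 members of the 17β-hydroxysteroid dehydrogenase family (Hsd17b2, Hsd17b6, Hsd17b11, Hsd17b13), the steroid 5α-reductase Srd5a1 and the steroid 21-hydroxylase Cyp21a1. They were picked by name from the 54532 genes listed by Ensembl identifier, and all 10 were found and had enough counts to be tested among 12795 genes. RNA was sequenced from the livers of wild-type male C57BL/6J mice, 3 on high-fat diet alone (HFD, replicates 1 to 3) and 3 on the same diet with allantoin, an oxidation product of uric acid, in the drinking water (HFD+allantoin, replicates 4 to 6), with 1 library per mouse. All mice entered at 8 weeks of age and received the diet for 4 weeks before and 4 weeks during the allantoin period, and no group on normal chow was analysed here. The protocol in the labels names 0.06 and 0.3 mg/mL allantoin without saying which library had which. The study's results place the sequenced livers in its high-dose group, which its methods give as 0.3 mg/mL.

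Steroid dehydrogenases and hydroxylases set how much active hormone a cell sees. In the adrenal cortex and gonads, 3β-hydroxysteroid dehydrogenases and the 21-hydroxylase build progesterone, corticosteroids and sex steroids from cholesterol. In the liver, related enzymes mostly convert steroids that are already made. They reactivate glucocorticoid from its keto form (Hsd11b1), inactivate estradiol and testosterone (Hsd17b2), or start the reduction of circulating steroids before conjugation (Srd5a1). Several mouse liver forms, Hsd3b5 among them, are known to be made mainly by males.

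HFD replicate 2 stood apart from the other libraries and is set out before the results. It held 888 counts of Hsd3b1, the 3β-hydroxysteroid dehydrogenase of mouse adrenal and gonad, where no other library held more than 4. It also held 219 counts of Cyp11a1 and 160 of Cyp11b1, which make pregnenolone and corticosterone in the adrenal cortex, and every other library held 0 of both. Of 10 adrenal cortex markers, 7 were at 4 counts or fewer in each of the other libraries, and those 7 summed to 1537 counts in HFD replicate 2 against at most 7 elsewhere. The low sum elsewhere follows from picking markers by that limit. Of the remaining markers, Star had most counts in HFD replicate 2. Mrap and Fdx1 had most in HFD replicate 3, at 1153 and 2599 counts against 744 and 1290 in HFD replicate 2. All 5 markers of the adrenal medulla (Th, Dbh, Pnmt, Chga, Chgb) summed to 1305 counts in HFD replicate 2 and to at most 2 in any other library. Of 10 adipocyte markers, 5 were at 4 counts or fewer in each of the other libraries (Adipoq, Plin1, Lep, Retn, Ucp1). Picked by that limit, they summed to 1359 counts in HFD replicate 2 and to at most 3 elsewhere. Of the remaining markers, Cfd, Lipe and Cidec had most counts in HFD replicate 2. Adrb3 had most in HFD replicate 1 (311 against 284 in HFD replicate 2) and Cidea in HFD+allantoin replicate 4 (55 against 46). None of the 10 hepatocyte markers was at 0 in any library. The fold changes of the 10 genes are therefore given with and without this library.

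**Figure D1:**
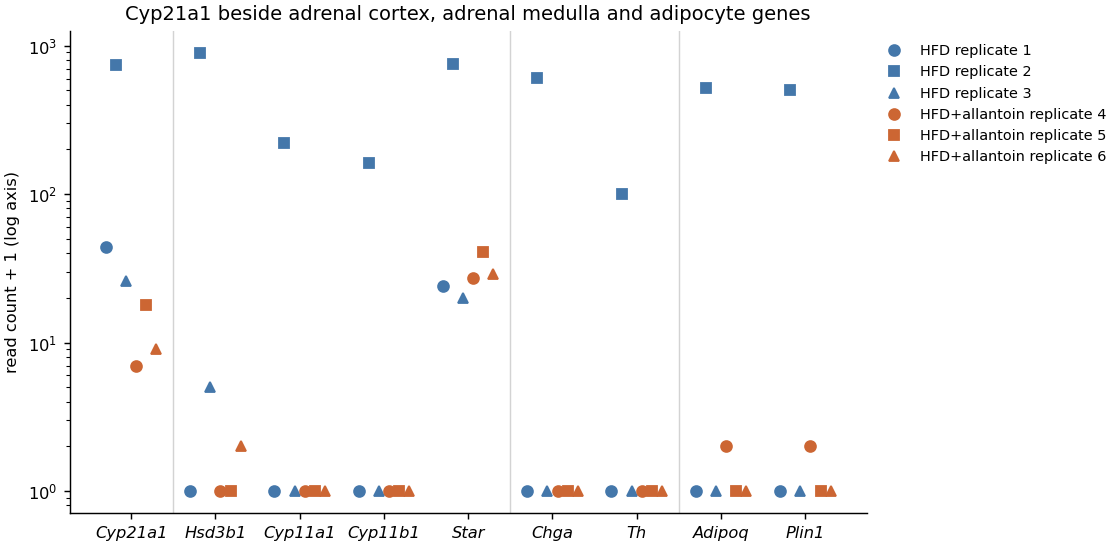
Read counts plus 1 (log axis) of Cyp21a1, of 4 adrenal cortex genes (Hsd3b1, Cyp11a1, Cyp11b1, Star), 2 adrenal medulla genes (Chga, Th) and 2 adipocyte genes (Adipoq, Plin1) in each of the 6 libraries, 1 point per library. HFD replicate 2 (blue squares) lies above all other libraries for every gene drawn, while HFD replicates 1 and 3 still lie above the 3 HFD+allantoin libraries for Cyp21a1.

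The 3β-hydroxysteroid dehydrogenase genes lie side by side on chromosome 3, and their products oxidize the 3β-hydroxyl group of steroids, except that the mouse liver form Hsd3b5 is known as a 3-keto reductase. Their transcripts resemble one another: Hsd3b2 and Hsd3b3 were 93.2% identical over 1492 aligned bases, and Hsd3b5 was 80.8% identical to Hsd3b2 over 1193. Their upstream sequences resemble one another less and are shown as a description. Whether they bear on expression was not tested. The runs below are the 250 bases before a RefSeq start site (GRCm38.p6, minus strand, written 5′ to 3′ along the gene), at chr3:98724544-98724793 for Hsd3b2, chr3:98763129-98763378 for Hsd3b3 and chr3:98645535-98645784 for Hsd3b5. Capitals mark runs of at least 12 identical bases shared between any of the 3.

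Hsd3b2: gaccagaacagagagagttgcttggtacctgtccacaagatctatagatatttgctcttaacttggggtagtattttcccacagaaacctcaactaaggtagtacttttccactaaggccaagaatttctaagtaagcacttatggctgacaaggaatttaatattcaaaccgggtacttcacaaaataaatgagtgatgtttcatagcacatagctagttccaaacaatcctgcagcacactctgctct
Hsd3b3: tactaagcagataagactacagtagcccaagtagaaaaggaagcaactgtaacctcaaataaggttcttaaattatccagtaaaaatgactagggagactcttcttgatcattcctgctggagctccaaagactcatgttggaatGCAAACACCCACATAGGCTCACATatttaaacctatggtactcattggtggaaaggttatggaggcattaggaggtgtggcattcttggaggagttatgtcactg
Hsd3b5: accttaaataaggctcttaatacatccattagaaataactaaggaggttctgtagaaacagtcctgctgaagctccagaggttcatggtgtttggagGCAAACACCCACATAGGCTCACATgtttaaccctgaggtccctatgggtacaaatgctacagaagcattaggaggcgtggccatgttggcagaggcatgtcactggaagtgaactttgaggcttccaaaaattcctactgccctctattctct

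The capitals show that Hsd3b3 and Hsd3b5 had 1 stretch of 24 bases in common and that Hsd3b2 shared no run of 12 with either. On a whole-window alignment, Hsd3b3 and Hsd3b5 had 151 of 250 bases in common, while Hsd3b2 had 128 in common with Hsd3b3 and 126 with Hsd3b5. Windows of unrelated genes among the 10 reached up to 138 by the same alignment, so values near 130 are what unlike sequences give. RefSeq lists a second start for Hsd3b3, and the 250 bases before it matched those before the first at 248 positions. The RefSeq start of Hsd3b5 used here lies 15282 bases upstream of the outermost start in GENCODE M21. The window of Hsd3b2 held the letters TGTTCT, a half-site of the glucocorticoid receptor, on the other strand with its first base at −246, and 16.1% of 32851 windows of this length in the table held these letters on either strand. The window of Hsd3b3 held CCAAT at −62, also on the other strand, as did 33.8% of all windows on either strand, and neither these letters nor TATAAA, TTCNNNGAA (the STAT5 motif) or CAAAGTCCA (an HNF4A motif) occurred in the window of Hsd3b5. These matches describe letters only.

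Expression is given in CPM, read counts put on a common library size with TMM factors. Fold changes are HFD+allantoin over HFD, on the log2 scale unless a fold is named, with their standard error (SE). P-values are two-sided, from edgeR's quasi-likelihood test, adjusted by Benjamini-Hochberg over all 12795 genes, and a gene was called at an adjusted p under 0.05. Of the 10 genes, 2 were called higher in HFD+allantoin (Hsd3b3, Hsd17b11), against 11.3% of all tested genes, and 2 were called lower (Hsd17b2, Cyp21a1), against 13.0%. In 5 of the 10, the values of the groups did not overlap, against 44.3% of all tested genes. The median log2 fold change was −0.26 over the 10 genes and −0.03 over all tested genes. Scaling by library size alone moved the median of all tested genes up by 0.41, gave 4 of the 10 genes as higher and 2 as lower and turned their median to 0.14. The 2 higher calls became 0 without HFD replicate 1 or HFD+allantoin replicate 4 or 5 and 1 without HFD replicate 2 or HFD+allantoin replicate 6, and the 2 lower calls became 1 without any single HFD+allantoin library.

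**Figure D2:**
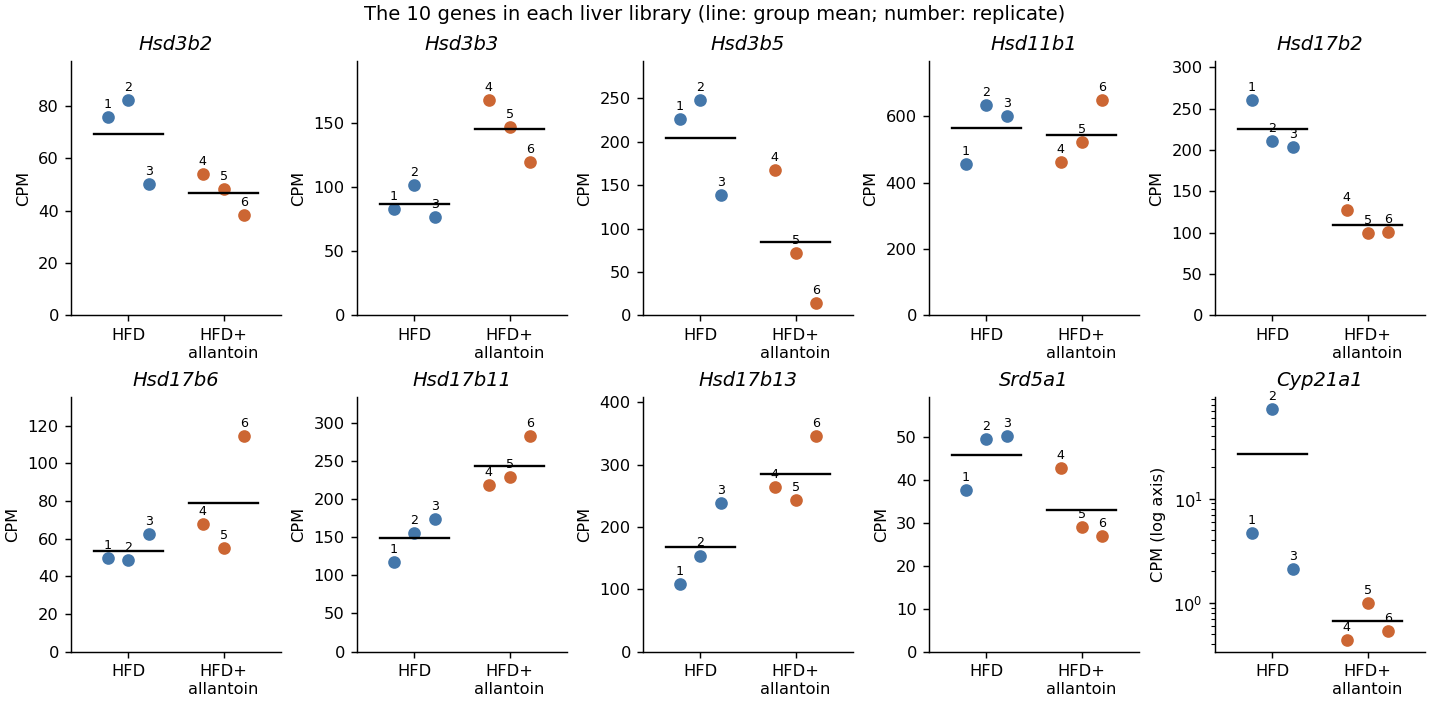
Expression in CPM (linear axes from 0, except a log axis for Cyp21a1) of the 10 genes in the 3 HFD (blue) and 3 HFD+allantoin (orange) libraries, with the replicate number at each point and a line at the group mean. The groups do not overlap for Hsd3b3, Hsd17b2, Hsd17b11, Hsd17b13 and Cyp21a1.

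Among the 3β-hydroxysteroid dehydrogenases, Hsd3b3 rose, while its close relative Hsd3b2 had lower values that did not pass the test. Hsd3b3 (ENSMUSG00000062410, chr3:98741523-98763127, minus strand) measured 82.8, 101.5 and 76.7 CPM in HFD replicates 1 to 3 and 167.6, 146.8 and 119.7 CPM in HFD+allantoin replicates 4 to 6. All 3 HFD+allantoin libraries lay above all 3 HFD libraries, and the gene was 1.66-fold higher (log2 0.73, SE 0.19, edgeR adjusted p = 0.0237). The value was 0.86 without HFD replicate 2 (adjusted p = 0.0240). The call was lost without HFD+allantoin replicate 4 (0.62, adjusted p = 0.103) or replicate 5 (0.73, adjusted p = 0.0890), and it sat at the threshold without HFD replicate 1 (0.70, adjusted p = 0.05003).

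Hsd3b2 (ENSMUSG00000063730, chr3:98709255-98724543, minus strand) measured 75.9, 82.4 and 50.2 CPM in HFD and 54.1, 48.3 and 38.5 CPM in HFD+allantoin. HFD replicate 3 lay within the range of the HFD+allantoin libraries, and the difference did not pass the adjusted test (log2 −0.56, SE 0.22, edgeR adjusted p = 0.0938). Without HFD replicate 3 it did (−0.75, adjusted p = 0.0181). Exons of both genes overlap the oppositely oriented gene Zfp697, by 99 bases for Hsd3b2 and 281 for Hsd3b3, and Zfp697 itself was at 0.67 to 3.06 CPM in the 6 libraries. Whether the counting used strand is not given in the sources used here. The longest transcript model of Hsd3b2 also held stretches of at least 200 bases that were at least 95% identical to transcripts of 29 other genes. Hsd3b3 was among them (95.7% over 603 bases). Part of the Hsd3b2 count may therefore depend on how such reads were assigned.

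The balance of the pair was tight within HFD+allantoin. The ratio of Hsd3b2 to Hsd3b3 counts within a library was 0.917, 0.811 and 0.654 in HFD replicates 1 to 3, and 0.323, 0.329 and 0.321 in HFD+allantoin replicates 4 to 6. The ratio fell by 1.28 on the log2 scale and the groups did not overlap, with an exact two-sided permutation p of 0.1, the smallest that 3 against 3 libraries allow. A ratio within a library needs no scaling between libraries. It was computed after the values of both genes had been seen. Reads from the stretch that is near-identical in both genes could be assigned to either. Their part in the ratio was not tested.

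Hsd3b5 (ENSMUSG00000038092, chr3:98618634-98630252, minus strand) varied most within a group among these 3 genes. It measured 225.8, 248.3 and 138.7 CPM in HFD and 167.1, 71.5 and 14.6 CPM in HFD+allantoin. The groups overlapped, since HFD+allantoin replicate 4 lay above HFD replicate 3, and replicate 6 lay far below the other 5 libraries. The difference did not pass the test (log2 −1.28, SE 0.66, edgeR adjusted p = 0.187), and it was −1.11 without HFD replicate 2 (adjusted p = 0.312). Set against its neighbours in the same library, the ratio of Hsd3b5 to the sum of Hsd3b2 and Hsd3b3 was 1.42, 1.35 and 1.09 in HFD and 0.754, 0.366 and 0.0922 in HFD+allantoin. These ratios did not overlap (log2 difference −2.12, exact permutation p = 0.1, 0.2 after adjustment over 4 ratios). The difference was −1.29 without HFD+allantoin replicate 6 and −2.80 without replicate 4, and the fold change of Hsd3b5 itself was −0.77 and −2.24 in these cases, with no call in either. Hsd3b5 and the transcript of the predicted gene Gm4450 were 96.2% identical over 628 bases.

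The library with the least Hsd3b5, HFD+allantoin replicate 6, also had the lowest value of 13 of the 15 tested genes in a list known as male-biased in mouse liver, and the highest value of 3 of 5 in a female-biased list. Serpina1e, a serpin of that kind, was at 335.2 CPM there against 1947 to 6616 CPM in the other 5 libraries, and Cyp4a12b, a fatty acid hydroxylase, at 14.98 against 59.3 to 97.1 CPM. Cyp2b9, a cytochrome P450 made mainly in female liver, was at 193.6 CPM there against 0.395 to 5.57 CPM elsewhere. These 3 genes come from lists of sex-biased genes and were singled out after their values were seen. HFD replicate 2, the library with adrenal and adipocyte genes, lay at the other end. It had the highest value of 8 of the 15 male-biased genes and the lowest of 4 of the 5 female-biased genes. Hsd3b5 was also highest there, at 248.3 CPM. Between the groups, 7 of the 15 male-biased genes were called lower and 0 higher, their median log2 fold change being −1.03. Over all tested genes, 13.0% were called lower and 11.3% higher. Of 5 tested female-biased genes, 3 were called higher (Abcd2, Acot3, Fmo2) and 0 lower, with a median of 1.72. Among the male-biased genes called lower were Cyp2u1 (−1.61, adjusted p = 0.00403), Gstp1 (−1.80, 0.00843), Mup3 (−0.90, 0.0195) and Elovl3 (−1.86, 0.0217). Elovl3, at 475.2 CPM in HFD replicate 2 against 156.6 and 169.7 CPM in the other HFD libraries, was at −1.15 without that library (adjusted p = 0.0399). Several of these genes have near-identical copies between which reads could be split: Serpina1e was 96.0% identical to Serpina1b over 1575 bases, Cyp4a12b 98.2% to Cyp4a12a over 2395, and Gstp1 98.7% to Gstp2 over 445. The 7 male-biased calls became 2 without HFD+allantoin replicate 5 or 6, 4 without HFD replicate 1 or 2 or HFD+allantoin replicate 4, and 3 under scaling by library size. For these lists, and for the lists of aldo-keto reductases, carriers and receptors, Cyp21a1 neighbours and stellate cell markers below, each with 0 calls in a single direction, edgeR's unadjusted p under 0.05, DESeq2 and limma-voom also gave 0 in that direction.

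The other genes of the family were nearly silent in liver. Hsd3b4 had 1 count in the 6 libraries together, Hsd3b6 had 23 counts in HFD replicate 2 and 0 in the rest, and Hsd3b7, which acts in bile acid synthesis, ranged from 0.33 to 2.29 CPM. None of these 4, Hsd3b1 included, had enough counts to be tested.

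Hsd11b1 (ENSMUSG00000016194, chr1:193221634-193264075, minus strand) regenerates active glucocorticoid in the endoplasmic reticulum, using NADPH that H6pd, an enzyme of the same compartment, supplies. It measured 457.8, 633.3 and 601.8 CPM in HFD and 461.6, 524.1 and 649.8 CPM in HFD+allantoin. The ranges nearly coincided, and no difference was detected (log2 −0.05, SE 0.20, edgeR adjusted p = 0.881). Under scaling by library size alone the value turned to 0.34 (adjusted p = 0.330). H6pd was at 282.9 to 336.9 CPM in HFD and 298.3 to 358.0 CPM in HFD+allantoin (0.04, adjusted p = 0.873), and the ratio of Hsd11b1 to H6pd was 1.48, 2.24 and 1.79 in HFD and 1.55, 1.46 and 2.15 in HFD+allantoin (log2 difference −0.09, exact permutation p = 0.7). Hsd11b2, which runs the opposite reaction in kidney, had 0 counts in all 6 libraries.

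The 17β-hydroxysteroid dehydrogenases split into both directions. Hsd17b2 (ENSMUSG00000031844, chr8:117701904-117759027, plus strand), which oxidizes estradiol and testosterone to their weaker 17-keto forms, measured 260.6, 210.6 and 203.5 CPM in HFD and 127.4, 100.1 and 100.5 CPM in HFD+allantoin. Every HFD library lay well above every HFD+allantoin library. The gene was 2.06-fold lower in HFD+allantoin (log2 −1.04, SE 0.18, edgeR adjusted p = 0.00596), and −1.09 without HFD replicate 2 (adjusted p = 0.0116). It was the only one of the 10 called in every alternative at the same threshold, with values from −1.16 to −0.92 when each library was left out. Its smallest value was −0.61, under scaling by library size (adjusted p = 0.0492).

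Hsd17b6 (ENSMUSG00000025396, chr10:127990936-128007611, minus strand), whose product acts on androgen metabolites and retinol and resembles the retinol dehydrogenases, measured 49.5, 48.6 and 62.2 CPM in HFD and 67.8, 55.1 and 114.5 CPM in HFD+allantoin. Replicate 5 of HFD+allantoin lay within the HFD range, and the difference did not pass the test (log2 0.57, SE 0.27, edgeR adjusted p = 0.151). The ratio of Hsd17b2 to Hsd17b6 was 5.27, 4.33 and 3.27 in HFD and 1.88, 1.82 and 0.878 in HFD+allantoin. The groups did not overlap, and the ratio fell by 1.55 on the log2 scale (exact permutation p = 0.1, adjusted 0.2).

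Hsd17b11 and Hsd17b13 are neighbours on chromosome 5 and encode enzymes found on lipid droplets, and their transcripts were 70.8% identical over 636 bases. Hsd17b11 (ENSMUSG00000029311, chr5:103989762-104021919, minus strand) measured 116.8, 155.6 and 174.1 CPM in HFD and 218.3, 228.1 and 282.4 CPM in HFD+allantoin. The groups did not overlap and the gene was 1.63-fold higher (log2 0.71, SE 0.20, edgeR adjusted p = 0.0320). The size held at 0.56 to 0.84 when each library was left out, but the call was lost without any of them except HFD replicate 3, with an adjusted p of 0.0593 and a value of 0.74 without HFD replicate 2.

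Hsd17b13 (ENSMUSG00000034528, chr5:103955440-103977410, minus strand), a liver enzyme studied in fatty liver disease, measured 108.0, 154.1 and 238.9 CPM in HFD and 263.8, 243.1 and 345.9 CPM in HFD+allantoin. The groups did not overlap, although HFD replicate 3 came close to the lowest HFD+allantoin library. The difference did not pass the test (log2 0.77, SE 0.28, edgeR adjusted p = 0.0784), and it passed without HFD replicate 3 (1.12, adjusted p = 0.00945) and in DESeq2 (0.77, adjusted p = 0.0310). The ratio of Hsd17b13 to Hsd17b11 within a library was 0.924, 0.990 and 1.37 in HFD and 1.21, 1.07 and 1.22 in HFD+allantoin, and no difference was detected (log2 difference 0.11, exact permutation p = 0.6).

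Of the other 11β- and 17β-hydroxysteroid dehydrogenases listed, 4 could be tested and edgeR called 0 in either direction, with a median of 0.36. At an unadjusted p under 0.05, 2 were higher and 1 lower, DESeq2 and limma-voom each called 1 lower, and scaling by library size gave 2 higher. Among those 4, Hsd17b10 (−0.56, edgeR adjusted p = 0.0563), a mitochondrial enzyme, and Hsd17b7 (0.72, adjusted p = 0.0844), an enzyme of cholesterol synthesis, came nearest to it and are named after their values were seen. Hsd17b4, a peroxisomal enzyme, was the most abundant of the 4 at 533.0 to 571.5 CPM in HFD and 577.0 to 617.4 CPM in HFD+allantoin (0.12, adjusted p = 0.586).

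**Figure D3:**
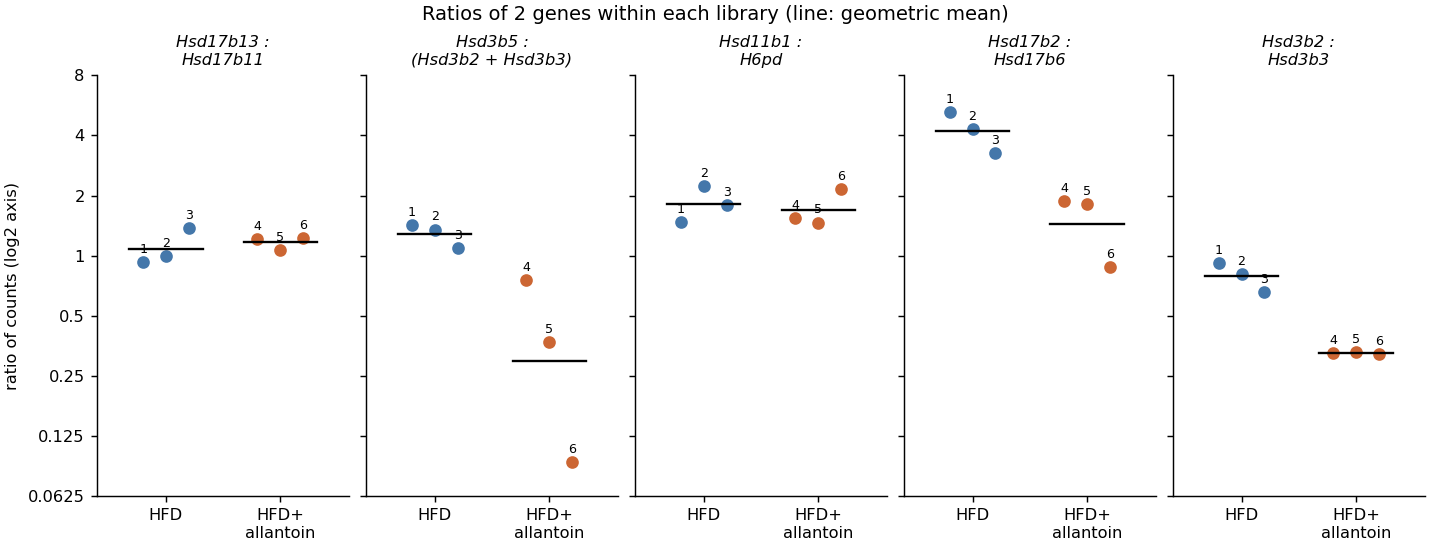
Ratios of the counts of 2 genes, or of 1 gene to the sum of 2, within each library (log2 axis, the same in all panels), with the replicate number at each point and a line at the geometric mean of the group. The groups are separate for Hsd3b5 to Hsd3b2 plus Hsd3b3, for Hsd17b2 to Hsd17b6 and for Hsd3b2 to Hsd3b3, where the HFD+allantoin libraries lie between 0.321 and 0.329, and they overlap for the other pairs.

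Srd5a1 (ENSMUSG00000021594, chr13:69573449-69611442, minus strand), which reduces testosterone, progesterone and corticosterone to their 5α-dihydro forms, measured 37.7, 49.4 and 50.2 CPM in HFD and 42.8, 28.9 and 26.9 CPM in HFD+allantoin. Replicate 4 of HFD+allantoin lay above HFD replicate 1, and the difference did not pass the test (log2 −0.48, SE 0.22, edgeR adjusted p = 0.138). The predicted gene Gm17108 shares 476 exon bases with Srd5a1 on the same strand and had 1 count in all.

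A list of other steroid reductases and aldo-keto reductases gave a more uniform picture. Of 9 tested steroid reductases and aldo-keto reductases, 6 were called higher and 0 lower, against 11.3% and 13.0% of all tested genes. The list's median was 0.90 on the log2 scale. Akr1c19 measured 9.93, 12.6 and 21.3 CPM in HFD and 46.9, 81.3 and 72.2 CPM in HFD+allantoin (2.18, SE 0.31, edgeR adjusted p = 0.00392). Akr1c14, the mouse 3α-hydroxysteroid dehydrogenase, measured 133.1, 115.1 and 209.9 CPM in HFD and 319.0, 374.3 and 350.1 CPM in HFD+allantoin (1.19, adjusted p = 0.00928). Both genes were higher in every HFD+allantoin library than in any HFD library. Akr1c14 was 100% identical to Gm18857 over 234 bases and Akr1c19 to Marcksl1-ps4 over 291, and such reads could be assigned to either. Akr1c13 (1.31, adjusted p = 0.0151), which shared 666 bases at 96.1% identity with Akr1c12, and Akr1c20 (1.10, 0.0217) were called as well, as were Akr1c6, a liver 17β-hydroxysteroid dehydrogenase (0.90, 0.0327), and the 5β-reductase Akr1d1 (0.71, 0.0391), the last 2 named after their values were seen. The count of 6 fell to 2 when HFD+allantoin replicate 5 or 6 was left out and to 3 without replicate 4. The other 5α-reductases, Srd5a2 (−1.03, adjusted p = 0.249) and Srd5a3 (0.41, 0.187), did not pass.

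Cyp21a1 (ENSMUSG00000024365, chr17:34801348-34804561, minus strand) makes 11-deoxycorticosterone in the adrenal cortex and was scarce in most of these livers. It had 43, 739 and 25 counts in HFD replicates 1 to 3, or 4.69, 73.0 and 2.09 CPM, and 6, 17 and 8 counts in HFD+allantoin, or 0.440, 1.01 and 0.540 CPM. HFD replicate 2, the library with the adrenal and adipocyte genes, was 15.5 to 165.9 times the other libraries in CPM, and the remaining HFD libraries still lay above all HFD+allantoin libraries. With all libraries the gene was called lower (log2 −5.28, SE 1.31, edgeR adjusted p = 0.0210). Without HFD replicate 2 it was 4.96-fold lower (−2.31, adjusted p = 0.0266). The call was lost without HFD+allantoin replicate 4, 5 or 6 (adjusted p from 0.0752 to 0.0807) and with limma-voom (−3.68, adjusted p = 0.194).

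The genes around Cyp21a1 were measured beside it, since its transcript was 97.4% identical over 1182 bases to that of the pseudogene Cyp21a2-ps and reads could be assigned to either. Cyp21a2-ps (chr17:34719813-34722252, minus strand) measured 71.0, 36.3 and 31.9 CPM in HFD and 3.74, 3.08 and 2.43 CPM in HFD+allantoin. It was lower in every HFD+allantoin library than in any HFD library (log2 −3.91, SE 0.35, edgeR adjusted p = 0.00133), and its highest value was in HFD replicate 1, not in replicate 2. In 5 of the 6 libraries, all but HFD replicate 2, the pseudogene had more CPM than Cyp21a1.

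Of the 5 neighbours, 4 were called lower and 0 higher, against 13.0% and 11.3% of all tested genes. C4a, related by sequence to the complement C4 gene C4b, lies 4530 bases beyond Cyp21a1. GENCODE M21 lists C4a as a processed transcript and not as protein-coding. It measured 240.6, 99.9 and 61.2 CPM in HFD and 24.3, 23.7 and 15.8 CPM in HFD+allantoin (−2.65, edgeR adjusted p = 0.00601). Without HFD replicate 1, its highest library, the value was −1.92 (adjusted p = 0.00608). Stk19 (−1.63, adjusted p = 0.00423) and the matrix protein gene Tnxb (−1.10, adjusted p = 0.0287) were lower too. C4b, the complement C4 gene between the pseudogene and Cyp21a1, measured 928.1 to 1502 CPM in HFD and 1009 to 1186 CPM in HFD+allantoin, and no difference was detected (−0.08, adjusted p = 0.823). C4a and C4b were 95.9% identical over 5378 bases. Exons of Cyp21a1 overlap the oppositely oriented pseudogene Tnxa by 102 bases, and Tnxa was at 0.494 CPM or less.

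**Figure D4:**
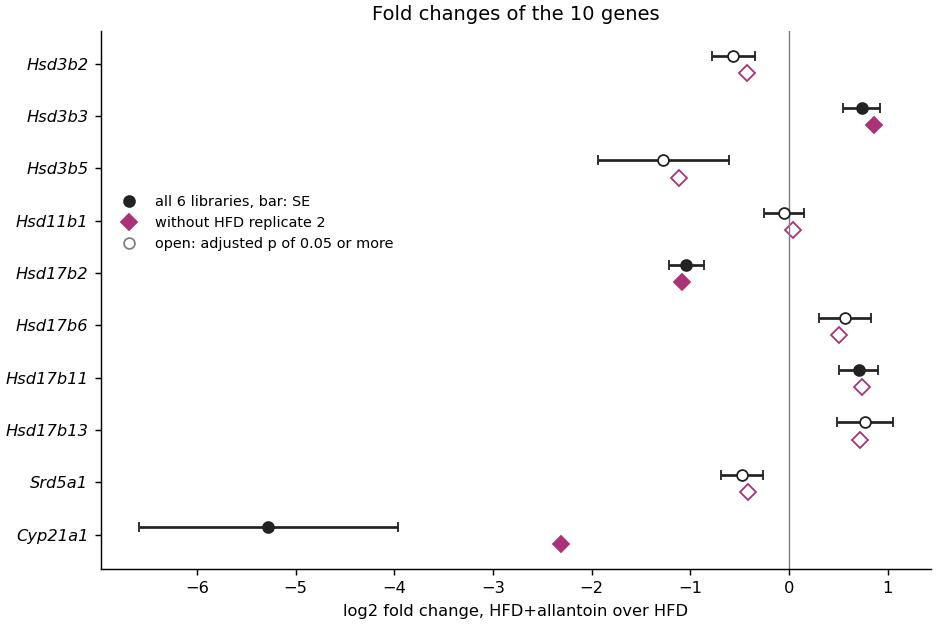
Log2 fold change, HFD+allantoin over HFD, of the 10 genes with all 6 libraries (black circles, bars are 1 standard error) and without HFD replicate 2 (diamonds), where filled symbols have an edgeR adjusted p under 0.05. Cyp21a1 moves from −5.28 to −2.31, and Hsd17b11 keeps its size while its adjusted p rises to 0.0593.

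For the genes that were not called, leaving out HFD replicate 2 gave −0.42 for Hsd3b2, 0.04 for Hsd11b1, 0.50 for Hsd17b6, 0.71 for Hsd17b13 and −0.42 for Srd5a1. None of these 5 was called without it either.

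Of 9 further genes of steroid synthesis and cholesterol import, 5 could be tested. Of these, 1 was called higher and 1 lower, against 11.3% and 13.0% of all tested genes. Cyp11a1, Cyp11b1 and Cyp11b2 had counts in HFD replicate 2 and 0 in the other libraries. Cyp19a1, the aromatase, had 0 counts in all 6. The cholesterol importer Star was at 74.3 CPM in HFD replicate 2 and at 1.59 to 2.51 CPM in the other 5 libraries (−3.66, edgeR adjusted p = 0.0631), and the value was 0.02 without HFD replicate 2 (adjusted p = 0.982). Fdxr, the reductase that feeds electrons to mitochondrial P450s, fell from 40.5, 38.7 and 45.1 CPM to 13.6, 12.4 and 13.5 CPM (−1.65, SE 0.16, adjusted p = 0.00153). Por, the reductase that serves microsomal P450s such as the 21-hydroxylase, rose from 121.9, 144.6 and 171.9 CPM to 339.1, 472.9 and 260.3 CPM (1.29, SE 0.24, adjusted p = 0.00803). Both reductases separated the groups fully. Among steroid sulfotransferases and the enzymes that make their sulfate donor, 5 were tested and edgeR called 0 in either direction (median 0.76), while 2 were higher at an unadjusted p under 0.05, 2 in DESeq2, 0 in limma-voom and 3 under scaling by library size. The most abundant, Sult2a8, was at 1028 to 1351 CPM in HFD and 1211 to 1509 CPM in HFD+allantoin (0.20, adjusted p = 0.451).

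Of 9 tested carriers, receptors and NADPH suppliers, 3 were called higher and 0 lower, with a median of 0.15. Among all tested genes, 11.3% were called higher and 13.0% lower. Serpina6, the corticosteroid-binding globulin that liver secretes into blood, measured 118.3, 131.2 and 135.4 CPM in HFD and 210.5, 284.7 and 281.0 CPM in HFD+allantoin (1.01, SE 0.18, edgeR adjusted p = 0.00601). Nr3c1, the glucocorticoid receptor, measured 53.7, 48.0 and 59.3 CPM in HFD and 77.8, 88.3 and 78.0 CPM in HFD+allantoin (0.60, adjusted p = 0.0258). The estrogen receptor gene Esr1 was higher as well (0.78, adjusted p = 0.0355). The count of 3 fell to 1 without HFD replicate 2 or any single HFD+allantoin library.

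Genes known to be induced through the glucocorticoid receptor mostly had lower values, but calls went both ways. Of 16 tested, 12 had a log2 fold change below 0 and 4 above, with a median of −0.64. Of the same 16, 4 were called lower and 2 higher, against 13.0% and 11.3% of all tested genes. The metallothioneins Mt1 (−3.25, SE 0.66, edgeR adjusted p = 0.00996) and Mt2 (−3.58, SE 0.75, adjusted p = 0.0112) bind zinc and also respond to metals, the clock gene Per1 (−1.23, adjusted p = 0.0126) follows the time of day, and Tsc22d3 (−1.52, adjusted p = 0.0353) encodes the leucine zipper protein GILZ. These were the 4 genes called lower. Without HFD+allantoin replicate 6, Mt1 was at −3.85 and Mt2 at −4.42. The smallest differences with a library left out were −2.70 for Mt1 and −3.11 for Mt2, and each gene lost its call in 1 alternative. Both varied widely within HFD, Mt1 from 105.4 to 670.6 CPM and Mt2 from 14.9 to 82.1 CPM. Tsc22d3 measured 147.8, 171.2 and 41.2 CPM in HFD and 49.3, 40.5 and 35.8 CPM in HFD+allantoin, so that HFD replicate 3 lay within the HFD+allantoin range. The lower count became 1 without HFD+allantoin replicate 5, 2 without replicate 4 and 2 under scaling by library size, and the higher count became 0 without HFD+allantoin replicate 4 or 5 and 1 without HFD replicate 1. Fkbp5, a receptor chaperone and a commonly used glucocorticoid reporter, measured 20.3, 20.1 and 16.3 CPM in HFD and 34.5, 34.5 and 27.8 CPM in HFD+allantoin (0.77, adjusted p = 0.0148). The other gene called higher was Klf9 (1.59, adjusted p = 0.0192), named after its value was seen. The time of tissue collection is not given in the sources used here.

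Hsd17b6 belongs by sequence with the retinol dehydrogenases, its transcript being 79.3% identical to Rdh16 over 570 bases and 79.9% to Rdh9 over 567. Of 14 tested genes of retinol and retinal metabolism, 3 were called higher and 1 lower, with a median of 0.12. The shares over all tested genes were 11.3% higher and 13.0% lower. Scaling by library size gave 5 of the 14 higher and 0 lower. Rdh16 measured 45.1, 43.5 and 69.6 CPM in HFD and 117.1, 133.2 and 142.5 CPM in HFD+allantoin (1.31, edgeR adjusted p = 0.00512). Rdh9 was higher (1.90, adjusted p = 0.00542) and Rdh5 lower (−0.70, adjusted p = 0.0413). The call of Rdh5 was lost in 8 alternatives and kept in 7. Rdh9 was 99.5% identical to Rdh16f1 over 2620 bases and 92.3% to Rdh16 over 2362. Rdh16 was also 100% identical to the pseudogene Rdh18-ps over 381 bases. The values of Rdh9 and Rdh16 are uncertain for that reason. Lrat, the retinol esterifying enzyme, was higher (1.86, adjusted p = 0.00518) and is also a stellate cell marker. Of 8 stellate cell markers, 6 were called higher and 0 lower, their summed level was 142.7 to 214.9 CPM in HFD and 358.3 to 410.1 CPM in HFD+allantoin, and none was at 0 in any library. The part of the stellate markers in the Lrat value was not tested, and more cells of a type cannot be told apart from more RNA per cell in such bulk samples.

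**Figure D5:**
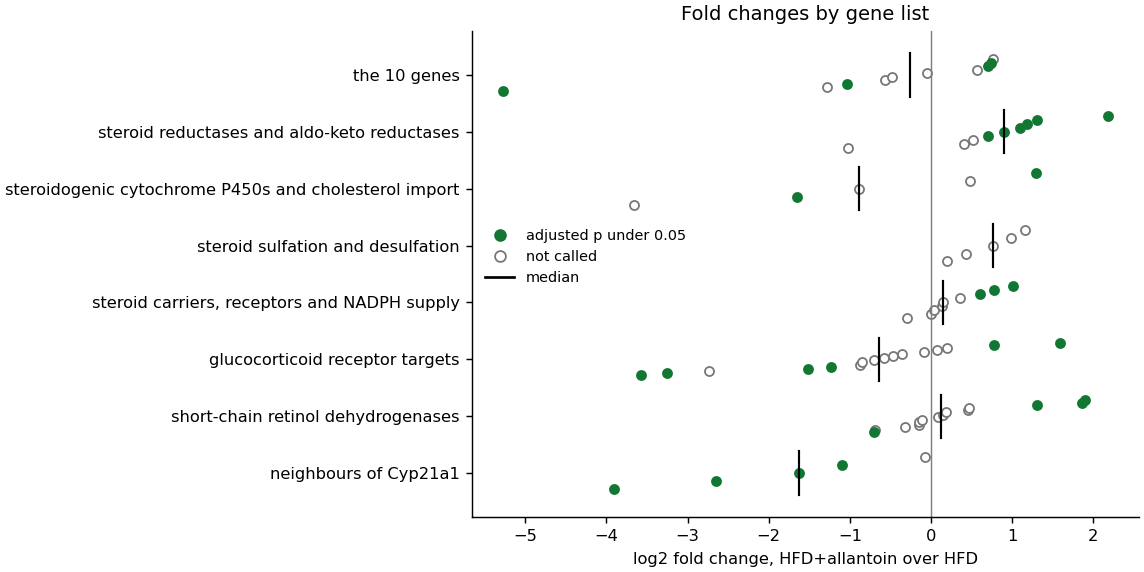
Log2 fold change, HFD+allantoin over HFD, of the tested genes in each list, 1 point per gene, with filled points at an edgeR adjusted p under 0.05 and a bar at the list's median. The aldo-keto reductase list has 6 filled points, all above 0, while the glucocorticoid receptor targets spread from −3.58 to 1.59.

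The order of the 10 genes by level differed between the groups. Per kilobase of merged exons, the highest mean levels in HFD were those of Hsd11b1 (132.7 ± 22.0 CPM per kb, SD, n = 3), Hsd3b5 (131.9 ± 37.4) and Hsd17b2 (116.9 ± 16.2). Hsd17b13 (77.4 ± 30.8), Hsd17b11 (45.6 ± 8.95) and Hsd17b6 (33.9 ± 4.84) followed, and neighbours in the order among these 6 overlapped. Hsd3b2 (18.8 ± 4.61), Srd5a1 (15.7 ± 2.41), Hsd3b3 (13.6 ± 2.03) and Cyp21a1 (12.4 ± 18.8, set by HFD replicate 2) came last and overlapped among themselves. Hsd3b2, Srd5a1 and Hsd3b3 lay below Hsd17b6 without overlap, while Cyp21a1 reached into its range through HFD replicate 2.

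In HFD+allantoin, Hsd17b13 (131.8 ± 25.2 CPM per kb, SD, n = 3) and Hsd11b1 (128.2 ± 22.6) led and overlapped. Hsd17b11 (74.4 ± 10.6) stood below them without overlap and above Hsd17b2 (56.8 ± 8.14) without overlap. Hsd3b5 (54.5 ± 49.7) and Hsd17b6 (50.2 ± 19.9) overlapped both Hsd17b2 and Hsd17b11. Hsd3b3 (22.6 ± 3.76) now stood above Hsd3b2 (12.7 ± 2.14) without overlap. Srd5a1 (11.3 ± 2.98) and Cyp21a1 (0.309 ± 0.141) were lowest. These ranks depend on the length used: with the longest transcript in place of merged exons, 4 genes changed rank in HFD and 2 in HFD+allantoin.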

How the data were processed

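Liver RNA was extracted and sequenced on an Illumina HiSeq instrument from 6 mice, 1 library each, in 2 groups of 3 taken from the labels. The deposited values are whole-number read counts per gene that the authors made from filtered reads and did not normalize. The aligner and counting tool are not given in the sources used here, and the submitters' processing notes name GRCm38 and mm10. Of 54961 entries, 54532 carried an Ensembl identifier. The other 429 were not used; they took 0.197% to 0.306% of the counts. Symbols, positions and exons came from GENCODE M21, which held 54495 of the identifiers. Libraries held 11326372 to 14601457 counts. The mitochondrial chromosome took 36.5% of the counts in HFD replicate 1, 20.2% in replicate 2 and 17.9% in replicate 3. In HFD+allantoin it took 6.92% to 11.4%. TMM factors were 0.756, 0.898 and 0.951 in HFD replicates 1 to 3, and 1.12 to 1.19 in HFD+allantoin.

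Genes were tested with edgeR 4.0.16 (R 4.3.3; TMM, filterByExpr, quasi-likelihood F-test, Benjamini-Hochberg over 12795 genes), with the group as the only term, since no batch, date or pairing is given. The edgeR p-values set the difference between the groups against the spread between mice within a group, estimated with pooling over genes. The procedure was tested on simulated data. Ratios within a library were compared by exact permutation, levels of different genes per kilobase of merged exons, and transcripts with BLAST 2.17.0 (near-identical: at least 95% over at least 200 bases). Upstream windows of 250 bases came from the RefSeq table (GRCm38.p6), which matched 8 of the 10 genes. Motifs were searched on both strands.

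The 10 genes and all lists were chosen with earlier results of these data known. All 10 genes were to be described, with up to 4 called genes of each other list by smallest p, the defining genes Nr3c1, H6pd, Serpina6, Tsc22d3 and Fkbp5, all neighbours of Cyp21a1, and the 3 genes most like Hsd3b5 and Cyp21a1. Results were recomputed with scaling by RLE, library size or upper quartile, with DESeq2 1.42.0 and limma-voom (limma 3.58.1), without a filter, with a minimum of 10 counts per library, leaving out each library, leaving out the mitochondrial chromosome, removing each library's trend in length and GC content, stricter thresholds, added counts of 0.5 or 5 in the ratios, and the longest transcript as length. The ratio of Hsd3b2 to Hsd3b3 and the list counts under the alternatives were added after seeing the data. Hsd17b8 and Sts, named in the lists, were not analysed here, and 1 defining gene is not reported here.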

Additional observations from a re-analysis of the deposited data

How the results depend on the processing

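No paired analysis was possible because the groups share no replicate number. When each library was left out in turn, 1 group was left with 2 libraries and the fit pooled the spread over genes. The log2 fold changes then ran from −0.75 to −0.42 for Hsd3b2, 0.62 to 0.86 for Hsd3b3, −0.193 to 0.0655 for Hsd11b1, 0.56 to 0.84 for Hsd17b11, 0.53 to 1.12 for Hsd17b13, −5.82 to −2.31 for Cyp21a1, −0.041 to 0.109 for H6pd, −4.21 to 0.017 for Star and −0.22 to 0.13 for C4b. The log2 ratio differences ran from −0.0021 to 0.283 for Hsd17b13 to Hsd17b11 and from −0.264 to 0.063 for Hsd11b1 to H6pd. Calls among the 10 genes ran from 0 to 3 higher and from 1 to 3 lower. Those among the aldo-keto reductases ran from 2 to 6 higher, among carriers and receptors from 1 to 4 higher, among glucocorticoid receptor targets from 0 to 2 higher and 1 to 4 lower, and among male-biased genes from 2 to 9 lower.

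Under scaling by library size only, Hsd11b1 (0.34) and C4b (0.36) turned in sign, Hsd17b6 (0.96) and Hsd17b13 (1.14) were called, and 4 of the 10 genes were higher. The same scaling gave 2 glucocorticoid receptor targets and 3 male-biased genes lower and 5 retinol genes higher. With no filter on low counts, Hsd3b5 (−1.23), Hsd17b6 (0.60) and Hsd17b13 (0.80) were called and 4 of the 10 genes were higher, while 8 glucocorticoid receptor targets and 11 male-biased genes were lower and 6 female-biased genes higher. With the length and GC trend removed, Hsd3b3 (0.65) was lost, Hsd17b13 (0.80) was called, and 1 carrier or receptor and 5 retinol genes were higher. DESeq2 called Hsd17b13 (0.77), and limma-voom did not call Cyp21a1 (−3.68), leaving 1 of the 10 genes lower. With at least 10 counts in every library Cyp21a1 was not tested, leaving 1 lower. At an adjusted p under 0.01, 0 of the 10 genes were higher and 1 lower, and at an unadjusted p under 0.01 with an absolute log2 fold change above 1, 0 were higher. The cause was not tested for any of these. Hsd17b2 kept its call in every fit across genes that was run.

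Levels per kilobase moved by more than 1 SD with the longest transcript as length. In HFD they became 285.3 CPM per kb for Hsd11b1, 170.4 for Hsd17b2, 66.6 for Hsd17b11 and 18.3 for Hsd3b3. In HFD+allantoin they became 166.4 for Hsd17b13, 275.6 for Hsd11b1, 108.7 for Hsd17b11, 82.8 for Hsd17b2 and 30.4 for Hsd3b3. Scaling by library size moved Hsd17b2 to 100.4 in HFD and to 66.0 in HFD+allantoin, and Hsd17b11 to 85.9 in HFD+allantoin. With 3 mice a group, an exact test of a single value cannot go below 0.1, and Cyp21a1, at 6 to 17 counts in HFD+allantoin, is limited by depth.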

Other observations

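Over the 6 libraries, the genes whose log2 CPM was most like that of Hsd3b5, among 12315 genes averaging 1 CPM or more, were Tmem88 (Pearson r = 0.987), Slc39a13 (0.983) and B3gat3 (0.979). All 3 were lowest in HFD+allantoin replicate 6, as Hsd3b5 was, over a much narrower range: B3gat3, a glycosaminoglycan linker enzyme, went from 34.5 CPM in HFD replicate 1 to 16.2 CPM in HFD+allantoin replicate 6. The most like Cyp21a1 were Slc1a5 (0.994), Snrnp25 (0.983) and Wnt4 (0.975), all 3 highest in HFD replicate 2. Slc1a5, a glutamine transporter, was at 45.0 CPM there and at 1.17 to 5.02 CPM in the other 5 libraries. These values describe 6 libraries that share the same groups, and they carry no p.

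Other marker lists stood as follows, beside 11.3% of all tested genes called higher and 13.0% called lower. Of 10 Kupffer cell and macrophage markers, 3 were called higher (Adgre1, Cd5l, Vsig4, named after their values were seen) and 0 lower by edgeR, with 0 lower also at an unadjusted p under 0.05, in DESeq2 and in limma-voom, and with a summed level of 158.2 to 363.8 CPM in HFD and 388.9 to 426.2 CPM in HFD+allantoin. Of 10 hepatocyte markers, 1 was called higher and 3 lower, with a summed level of 96604 to 99371 CPM in HFD and 81754 to 109101 CPM in HFD+allantoin. Kidney tubule markers summed to at most 4.26 CPM in any library. Of 8 sinusoidal endothelial markers, 1 was called lower and 0 higher by edgeR, although 7 had a log2 fold change above 0 (median 0.48), with 3 higher at an unadjusted p under 0.05, 2 in DESeq2 and 1 in limma-voom, and of the cholangiocyte markers 1 of 3 tested was called lower. Pancreatic acinar markers summed to 14.6 to 27.8 CPM, nearly all of it Cela1.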
